A study of Mus musculus with 6 samples.

Results

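In all, 9 transcriptional regulators of definitive blood stem and progenitor cells were followed: Myb, Hlf, Mecom, Meis1, Ikzf1, Ikzf2, Gfi1, Gfi1b and Mllt3. They were named as a list, and each was read from a probe set that the platform annotation assigned to that gene alone. All 9 were measured, out of 19937 genes. Mecom had 2 such probe sets, and the brighter one, by its mean over all arrays, stands for the gene. The others had 1 each.

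The cells were taken from CD1 mice at E11.5 (E, embryonic day), from the AGM region, which comprises the aorta, the gonads and the mesonephros. The 2 populations below were sorted from the collagenase-digested region, c-kit+ CD31+ CD45- Ter119- cells (3 arrays) and c-kit- CD31+ CD45- Ter119- cells (3 arrays). All 6 samples thus share the CD31 gate and the absence of surface CD45 and Ter119, and no sample carried a transgene or treatment by its labels. The replicates are labelled biological, and the labels do not say how embryos were pooled. A p-value here sets a difference only against the scatter among these arrays, which limma moderates with the scatter of all genes. Both populations are sort fractions and not single cell types. With bulk RNA, fewer cells of a type and less RNA per cell cannot be told apart.

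At this stage haematopoietic stem cells arise from endothelium of the dorsal aorta, which switches off vascular genes as it becomes blood. This step requires Runx1, which acts through the repressors Gfi1 and Gfi1b. Factors such as Myb, Hlf and Mecom are then needed for the stem and progenitor cells to be maintained. CD31 also marks primordial germ cells, which reach the same region at this stage and carry c-kit.

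The sorted antigen's own gene, Kit, was at 9.59, 9.54 and 9.53 in c-kit+ replicates 1, 2 and 3, against 8.27, 8.21 and 8.19 in c-kit- replicates 1, 2 and 3 (log2 values of the authors' RMA processing, the scale of every level below). This checks the labels and is no finding. Pecam1, which encodes CD31, was at 9.13 ± 0.16 in c-kit+ and 10.02 ± 0.02 in c-kit- cells (SD over 3 arrays). Ptprc, which encodes CD45, was at 8.52 ± 0.13 in c-kit+ and 8.75 ± 0.60 in c-kit- cells (SD over 3 arrays). It differed by -0.24 and did not pass (adjusted p = 0.689, limma). Its mean level stood at percentile 92.0 of all genes, although the gate excluded surface CD45. Array medians lay between 5.42 and 5.52. Precision is limited by the number of arrays, and the table carries no detection calls. No value was 0, so no marker was listed at 0. For the marker counts here and below, 2.71% of all genes were higher and 4.70% lower (adjusted p under 0.05, limma). Of 12 pan-endothelial markers 12 were lower in c-kit+ cells, and their mean level was 5.93 to 6.17 in c-kit+ and 8.88 to 8.98 in c-kit- arrays. They include Pecam1, the gene of the gated antigen CD31. Of 12 primordial germ cell markers 10 were higher and none lower (0 with an unadjusted p under 0.05 in limma), with mean levels of 7.59 to 7.75 in c-kit+ and 6.23 to 6.34 in c-kit- arrays. Of 10 macrophage markers 3 were lower and none higher. The mean of the 10 was 5.63 to 5.89 in c-kit+ arrays and 6.25 to 7.30 in c-kit- arrays, where replicate 1 stood above the other 2. All 10 differences were negative, 6 with an unadjusted p under 0.05 in limma, and their median was -0.72.

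**Figure D1:**
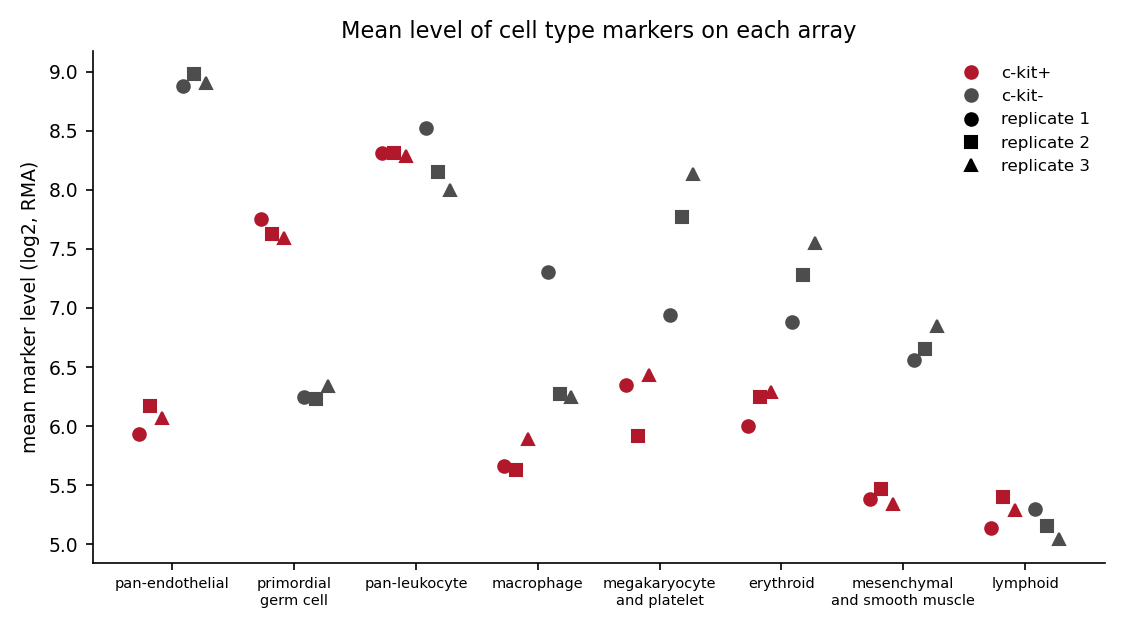
Mean level (log2, RMA) of the markers of 8 cell types on each array, c-kit+ arrays in red and c-kit- arrays in grey, with a symbol for each replicate number. Pan-endothelial markers lay at 5.93 to 6.17 in c-kit+ and 8.88 to 8.98 in c-kit- arrays, and pan-leukocyte markers overlapped, at 8.29 to 8.31 in c-kit+ and 8.0 to 8.52 in c-kit- arrays.

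The regulators moved in both directions. Myb, Hlf and Ikzf2 rose in c-kit+ cells, Mecom fell, and Meis1, Ikzf1, Gfi1, Gfi1b and Mllt3 did not pass. In all, 4 of 9 passed, where 7.41% of all genes did. Of the 9, 3 (33.3%) were higher, where 2.71% of all genes were, and 1 (11.1%) was lower, where 4.70% of all genes were (limma, Benjamini-Hochberg adjusted p under 0.05 over 19937 genes). The populations did not overlap for 5 of the 9, or 55.6%, where 26.8% of all genes showed no overlap. The c-kit+ arrays were the higher ones for 4 of these 5 (16.2% of all genes) and the lower ones for 1 (10.6% of all genes). The median difference was 0.45 for the regulators and 0.07 for all genes, both on the log2 scale as the c-kit+ mean less the c-kit- mean. The regulators were chosen with earlier results of these data known, so an excess over all genes may follow from the choice.

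**Figure D2:**
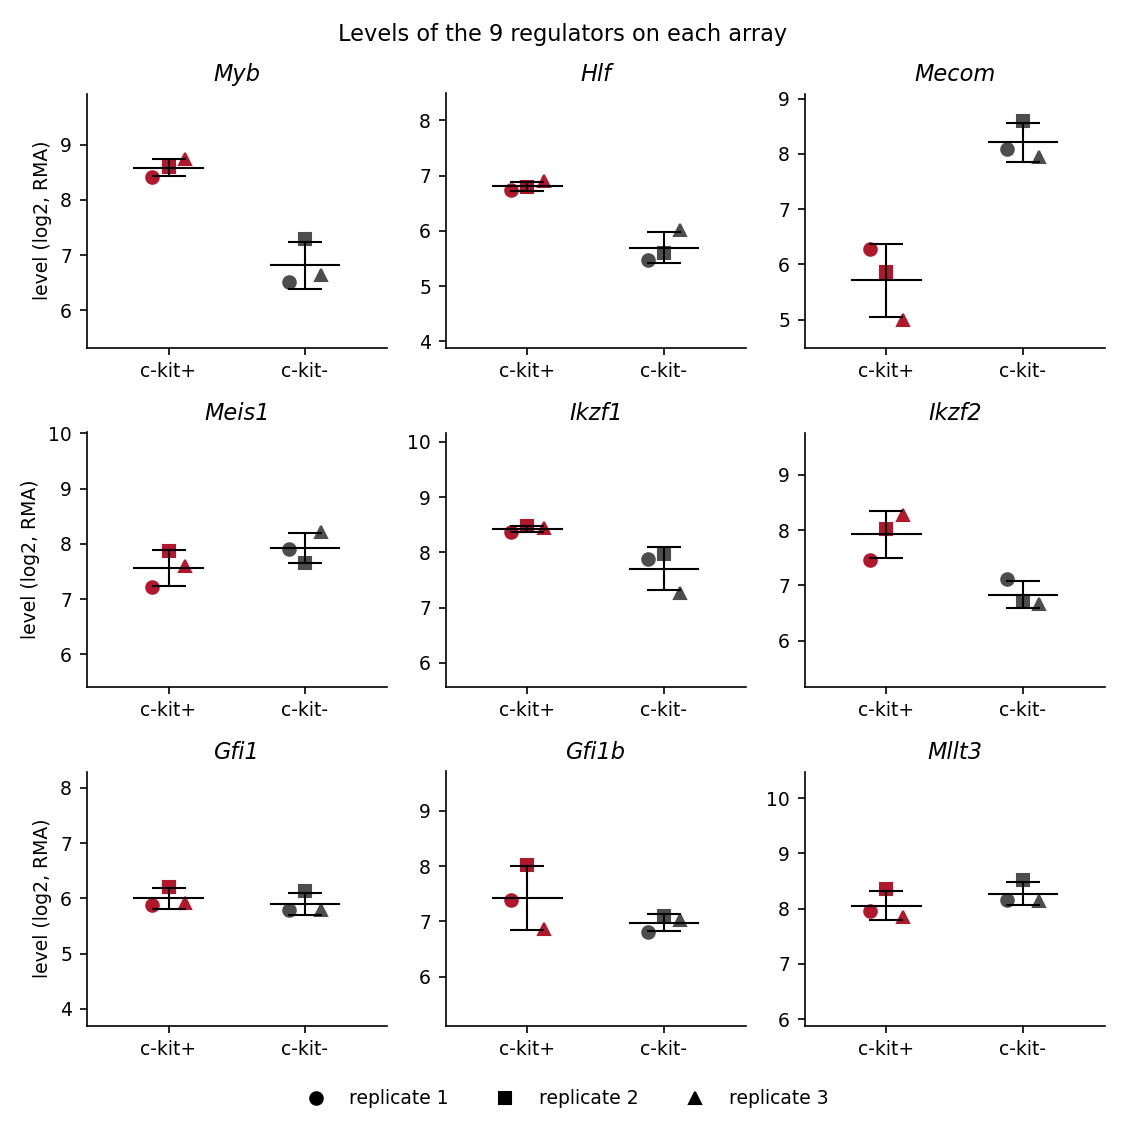
Level of each of the 9 regulators on each array (log2, RMA), c-kit+ cells on the left and c-kit- cells on the right of each panel, with the mean and SD of 3 arrays; every axis spans the same number of log2 units. Myb, Hlf, Ikzf1 and Ikzf2 lay higher in all c-kit+ arrays and Mecom lay lower in all of them, while the other 4 overlapped.

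Myb encodes the DNA-binding factor c-Myb, without which definitive blood formation fails in the mouse while primitive red cells still form. It was at 8.42, 8.59 and 8.73 in c-kit+ replicates 1, 2 and 3, against 6.51, 7.30 and 6.63 in c-kit- replicates 1, 2 and 3. No array of one population reached the other, and c-kit- replicate 2 stood closest to the c-kit+ arrays. The difference was 1.77 ± 0.22 (SE), or 3.40-fold, with a 95% interval of 1.27 to 2.26 (adjusted p = 0.00208, limma). It ran from 1.62 to 2.01 when each array was left out in turn and passed each time.

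Hlf encodes a basic leucine zipper factor of the proline and acidic amino acid-rich family that marks haematopoietic stem cells. Its level was 6.74, 6.79 and 6.90 in c-kit+ replicates 1, 2 and 3, against 5.48, 5.60 and 6.02 in c-kit- replicates 1, 2 and 3. The c-kit+ arrays lay close together and the c-kit- arrays were wider apart, with no overlap. The difference was 1.11 ± 0.17 (SE), or 2.16-fold, with a 95% interval of 0.72 to 1.5 (adjusted p = 0.00591, limma). Leaving out each array gave 1.0 to 1.27, with all 6 fits past the threshold. On the same arrays as the rises of Myb and Hlf, the mean of the primordial germ cell markers was higher, and its part in them was not tested.

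The promoters of Myb and Hlf are shown because both genes rose and each has a single listed start. They are the 250 bases before the start, from RefSeq on build GRCm38.p6, which held a promoter for 8 of the 9 regulators. The 4 short motifs below were searched on both strands, AAATCA, the core bound by Gfi1 and Gfi1b, TGACAG, bound by Meis proteins, the CCAAT box (CCAAT) and the TATA box (TATAAA). They occur in 12.4%, 15.9%, 33.8% and 12.4% of 32851 promoter windows of this length, in that order. None overlaps another in the windows printed here, and capitals mark a match. Neither window below held these letters.
Myb, chr10:21160985-21161234, minus strand: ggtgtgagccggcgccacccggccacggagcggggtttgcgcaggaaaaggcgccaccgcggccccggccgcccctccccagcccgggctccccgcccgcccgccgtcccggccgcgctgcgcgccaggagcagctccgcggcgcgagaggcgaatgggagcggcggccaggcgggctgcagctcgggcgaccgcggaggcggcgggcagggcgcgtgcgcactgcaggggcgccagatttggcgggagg
Hlf, chr11:90390918-90391167, minus strand: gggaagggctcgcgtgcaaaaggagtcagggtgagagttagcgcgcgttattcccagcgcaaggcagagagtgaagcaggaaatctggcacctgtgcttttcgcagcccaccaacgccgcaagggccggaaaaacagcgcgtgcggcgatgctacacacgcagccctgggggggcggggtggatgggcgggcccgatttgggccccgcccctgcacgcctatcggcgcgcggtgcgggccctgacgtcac
Both windows are rich in CpG dinucleotides, with 40 in that of Myb and 26 in that of Hlf, where the median window has 6. Their G and C content was 81.2% and 67.2%, against a median of 52.4%.

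Mecom was the regulator with the largest difference of the 9, and it went the other way. It encodes a zinc finger factor that maintains haematopoietic stem cells and is also expressed in embryonic endothelium. The level was 6.29, 5.86 and 4.99 in c-kit+ replicates 1, 2 and 3, against 8.09, 8.60 and 7.94 in c-kit- replicates 1, 2 and 3. All c-kit+ arrays were lower, replicate 3 most of all. The difference was -2.50 ± 0.32 (SE), 5.64-fold lower, with a 95% interval of -3.23 to -1.76 (adjusted p = 0.00262, limma). Leaving out single arrays gave -2.78 to -2.13, each past the threshold. The pan-endothelial markers were lower on the same arrays, 12 of 12, and their part in the fall was not tested.

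The other Mecom probe set differed less. It stood at 4.99, 4.46 and 4.76 in c-kit+ replicates 1, 2 and 3, against 5.70, 6.05 and 5.24 in c-kit- replicates 1, 2 and 3. Again no c-kit+ array reached a c-kit- one. The c-kit+ values of this probe set, and that of c-kit- replicate 3, lay below the array medians of 5.42 to 5.52. Whether this low level limited its difference was not tested. The difference was -0.93 ± 0.23 (SE), with a 95% interval of -1.46 to -0.40 (adjusted p = 0.051 in limma over every probe set of 1 gene, just outside the threshold), and with the probe sets averaged Mecom fell by 1.71. The brighter minus the dimmer probe set was 1.30, 1.40 and 0.23 in c-kit+ arrays and 2.39, 2.55 and 2.69 in c-kit- arrays, a change of -1.57 (two-sided exact permutation test p = 0.1, the smallest p that 3 against 3 arrays allow). This contrast was chosen after the values were seen.

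Mecom is known for a long form, MDS1-EVI1, that starts far upstream, and a shorter form, EVI1, from an internal start. The annotation gave the 2 probe sets different curated transcripts and 1 predicted transcript in common, and it does not tie either to a start. The windows before the 2 starts listed by RefSeq (GRCm38.p6) are shown because the 2 probe sets differed in size of change.
Mecom, upstream start, chr3:30509760-30510009, minus strand: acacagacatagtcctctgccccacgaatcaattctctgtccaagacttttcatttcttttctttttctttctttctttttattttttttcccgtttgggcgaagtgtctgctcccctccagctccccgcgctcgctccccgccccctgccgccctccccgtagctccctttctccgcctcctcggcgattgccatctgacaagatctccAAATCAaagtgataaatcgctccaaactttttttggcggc
Mecom, internal start, chr3:30013205-30013454, minus strand: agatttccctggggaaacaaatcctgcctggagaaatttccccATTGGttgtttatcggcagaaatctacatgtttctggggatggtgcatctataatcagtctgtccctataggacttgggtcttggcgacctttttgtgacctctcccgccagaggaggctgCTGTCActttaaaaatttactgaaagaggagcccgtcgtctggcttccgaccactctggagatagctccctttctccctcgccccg
The upstream window held AAATCA once, on the strand shown. The internal window held TGACAG once and the CCAAT box once, both on the opposite strand, so that CTGTCA and ATTGG are in capitals. The upstream window has 14 CpG dinucleotides and the internal one 8, with G and C contents of 50.8% and 50.4%.

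Meis1, a homeodomain partner of Hox proteins that maintains stem cells, did not follow Mecom. It was at 7.22, 7.88 and 7.60 in c-kit+ replicates 1, 2 and 3, against 7.90, 7.66 and 8.21 in c-kit- replicates 1, 2 and 3. The populations overlapped. The difference was -0.36 ± 0.21 (SE), with a 95% interval of -0.84 to 0.12 (adjusted p = 0.386, limma), so a fall of the size seen for Mecom lies outside the interval.

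**Figure D3:**
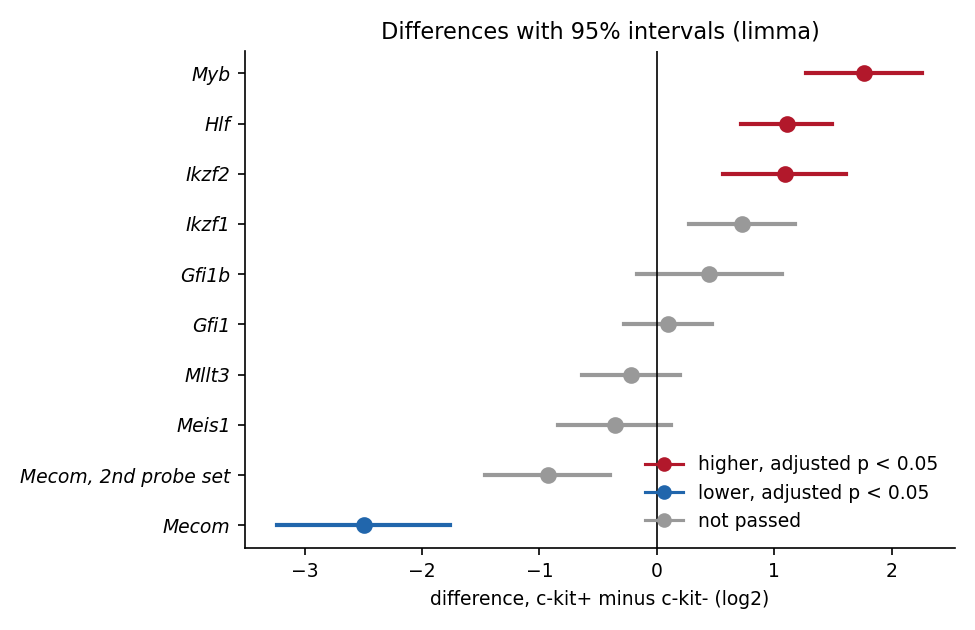
Difference of each regulator, c-kit+ minus c-kit- (log2), with its 95% interval from limma; the other Mecom probe set, marked 2nd, comes from the fit over every probe set. Myb, Hlf and Ikzf2 lay above 0 and Mecom below with an adjusted p under 0.05, and grey intervals did not pass.

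Ikzf1 and Ikzf2 encode Ikaros and Helios, zinc finger factors of stem cells and lymphocytes that bind DNA as dimers. Ikzf2 was at 7.46, 8.03 and 8.28 in c-kit+ replicates 1, 2 and 3, against 7.12, 6.72 and 6.66 in c-kit- replicates 1, 2 and 3. The arrays did not overlap, and the replicates numbered 1 were nearest to each other. The difference was 1.09 ± 0.23 (SE), or 2.13-fold, with a 95% interval of 0.57 to 1.61 (adjusted p = 0.0248, limma). The call was lost without c-kit+ replicate 2 or 3 (adjusted p = 0.0762 and 0.0723) and without c-kit- replicate 2 or 3 (adjusted p = 0.0817 and 0.0836), where the difference was 0.91 to 1.04. The primordial germ cell markers were higher on the same c-kit+ arrays as Ikzf2, and their part in its rise was not tested.

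Ikzf1 was at 8.37, 8.48 and 8.44 in c-kit+ replicates 1, 2 and 3, against 7.88, 7.97 and 7.26 in c-kit- replicates 1, 2 and 3. All c-kit+ arrays were higher, and c-kit- replicate 3 was the lowest array. The difference of 0.73 ± 0.20 (SE) had a 95% interval of 0.27 to 1.18 but did not pass over all genes (adjusted p = 0.0667, limma). Without c-kit- replicate 3 it was 0.50. Ikzf1 minus Ikzf2 was 0.50 ± 0.38 in c-kit+ and 0.87 ± 0.34 in c-kit- arrays (SD, n = 3 each), a change of -0.36 that was not distinguishable from the spread (two-sided exact permutation test p = 0.4, smallest possible 0.1). Beside these 2 genes, the pan-leukocyte markers, 2 of 10 higher and none lower (2 lower with an unadjusted p under 0.05 in limma), overlapped between the populations at 8.29 to 8.31 in c-kit+ and 8.0 to 8.52 in c-kit- arrays. Those markers include Ptprc, the gene of CD45, which the gate excluded at the surface. Of 9 lymphoid markers 1 was higher and 1 lower (11.1% each, where 2.71% of all genes were higher and 4.70% lower). Their mean levels overlapped as well, at 5.14 to 5.40 in c-kit+ and 5.04 to 5.30 in c-kit- arrays.

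Gfi1 and Gfi1b encode zinc finger repressors that recruit the demethylase Kdm1a and shut down endothelial genes as blood cells bud off. Gfi1 was at 5.88, 6.21 and 5.91 in c-kit+ replicates 1, 2 and 3, against 5.78, 6.13 and 5.79 in c-kit- replicates 1, 2 and 3. The arrays overlapped, with replicate 2 the highest in both populations. The difference was 0.10 ± 0.16 (SE), near the all-gene median of 0.07, with a 95% interval of -0.28 to 0.47 (adjusted p = 0.791, limma), and it was -0.01 without c-kit+ replicate 2.

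Gfi1b was at 7.39, 8.02 and 6.86 in c-kit+ replicates 1, 2 and 3, against 6.80, 7.10 and 7.02 in c-kit- replicates 1, 2 and 3. The c-kit+ arrays spread widely and replicate 3 lay within the c-kit- range. The difference was 0.45 ± 0.27 (SE), with a 95% interval of -0.17 to 1.06 (adjusted p = 0.398, limma). It was 0.15 without c-kit+ replicate 2 and 0.73 without c-kit+ replicate 3. Gfi1b is also a factor of red cell and platelet formation. Of 8 erythroid markers 1 was higher and 3 lower on these arrays, with mean levels of 6.0 to 6.29 in c-kit+ and 6.88 to 7.55 in c-kit- arrays. The 3 lower ones were the embryonic globin genes Hbb-y (-3.98), Hba-x (-3.83) and Hbb-bh1 (-2.46), and the higher one was Ermap (0.94). Of the 8 differences 3 were positive and 5 negative, with a median of -0.06, so the list did not move as a whole. Gfi1 minus Gfi1b was -1.42 ± 0.44 in c-kit+ and -1.07 ± 0.14 in c-kit- arrays (SD, n = 3 each), a change of -0.35 (two-sided exact permutation test p = 0.4, smallest possible 0.1).

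Mllt3 encodes AF9, a reader of acylated histones in the super elongation complex that sustains human stem cells in culture. It was at 7.96, 8.36 and 7.84 in c-kit+ replicates 1, 2 and 3, against 8.16, 8.52 and 8.14 in c-kit- replicates 1, 2 and 3. The arrays overlapped, and replicate 2 was the highest in each population. The difference was -0.22 ± 0.18 (SE), with a 95% interval of -0.64 to 0.20 (adjusted p = 0.555, limma).

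Myb and Mecom gave the widest contrast examined within the list. Myb minus Mecom was 2.13, 2.73 and 3.74 in c-kit+ replicates 1, 2 and 3, against -1.58, -1.30 and -1.31 in c-kit- replicates 1, 2 and 3. The change was 4.26. Myb was higher and Mecom lower on every c-kit+ array, so the separation of their difference follows from the values already given and is no further result. As probe sets differ in brightness, only this change between populations has a meaning, not the sign within 1 array.

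**Figure D4:**
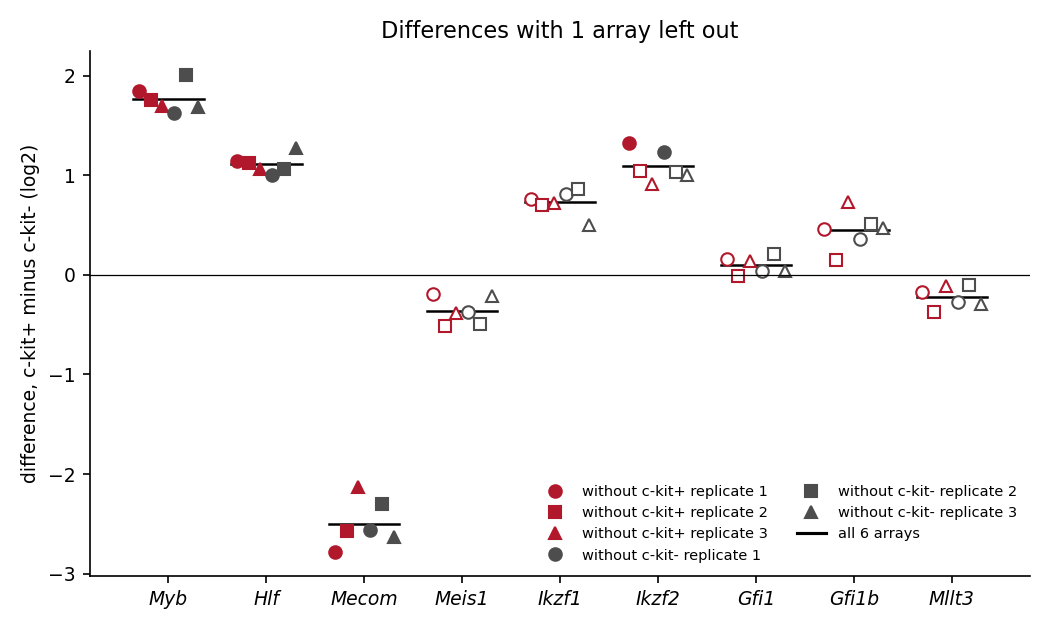
Difference of each regulator (log2, c-kit+ minus c-kit-) with each array left out in turn, as points, beside the value from all 6 arrays, as a line; filled points passed an adjusted p of 0.05 and open points did not. Myb, Hlf and Mecom passed in all 6 fits and Ikzf2 in 2 of them.

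Paralogues and other relatives of the regulators were followed as a list. Of 12 family members measured, 1 fell (8.3%, where 4.70% of all genes were lower) and none rose (1 higher and 3 lower with an unadjusted p under 0.05, limma), with a median difference of -0.09 against 0.07 for all genes. The one that fell was Meis2, a homeodomain paralogue of Meis1, at 5.92, 5.86 and 5.35 in c-kit+ replicates 1, 2 and 3, against 8.36, 8.33 and 8.59 in c-kit- replicates 1, 2 and 3. All its c-kit+ arrays were lower, by -2.72 ± 0.18 (SE, adjusted p = 8.83e-05, limma). The mesenchymal and smooth muscle markers were also lower on these arrays, 7 of 10, at 5.34 to 5.47 in c-kit+ and 6.56 to 6.85 in c-kit- arrays. Their part, like that of the endothelial markers, was not tested.

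Of 25 partners and cofactors measured, 2 fell (8.0%, where 4.70% of all genes were lower) and none rose (0 higher and 3 lower with an unadjusted p under 0.05, limma), with a median of -0.06. Hoxb4, a homeobox gene known to expand stem cells when overexpressed, was at 4.97 ± 0.25 in c-kit+ and 6.15 ± 0.32 in c-kit- cells (SD, n = 3 each), a difference of -1.18 (adjusted p = 0.0099, limma). Hoxa10, of the Hox genes that act with Meis1, had a difference of -0.66 (adjusted p = 0.0473, limma) and lost its call in every fit that left out 1 array (adjusted p of 0.0816 to 0.133). Kdm1a, the demethylase that Gfi1 and Gfi1b recruit, differed by 0.16 and its partner Rcor1 by -0.34, and neither passed.

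Of 25 other stem and progenitor transcription factors 1 rose (4.0%, where 2.71% of all genes were higher) and 2 fell (8.0%, where 4.70% were lower). At an unadjusted p under 0.05 in limma 5 were higher and 3 lower, 16 of the 25 differences were positive, and the median was 0.14. Gata2, a zinc finger factor of stem cell emergence, was at 7.84, 7.40 and 7.11 in c-kit+ replicates 1, 2 and 3, against 6.60, 6.66 and 6.47 in c-kit- replicates 1, 2 and 3. Its difference was 0.87 ± 0.20 (SE, adjusted p = 0.0321, limma) and did not pass without c-kit+ replicate 1 or 2, or c-kit- replicate 1, 2 or 3 (adjusted p of 0.0663 to 0.1). The ETS factors Erg and Fli1, shared by blood and endothelium, were lower by -1.16 and -0.90 (adjusted p = 0.00594 and 0.00663, limma), on the arrays where pan-endothelial markers were lower too.

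Genes described elsewhere as direct targets of the regulators changed in both directions: of 12 measured 3 were higher (25%, where 2.71% of all genes were) and 4 lower (33.3%, where 4.70% were), with a median of -0.19. At an unadjusted p under 0.05 in limma 3 were higher and 5 lower. The 3 higher ones include Kit, on which the cells were sorted, so its place in that count is no finding. Flt3, a cytokine receptor of early progenitors, was at 7.02 ± 0.19 in c-kit+ and 6.14 ± 0.17 in c-kit- cells (SD, n = 3 each), a difference of 0.88 (adjusted p = 0.0128, limma), and Gata2 is given above. Bcl2, a survival gene that c-Myb is known to activate, differed by -1.12 ± 0.15 (SE, adjusted p = 0.00279, limma), and Cd34, a sialomucin of progenitors and endothelium, by -1.30 ± 0.17 (SE, adjusted p = 0.00266, limma). Pf4, a platelet chemokine, differed by -3.38 ± 0.67 (SE, adjusted p = 0.0199, limma), and by -2.58 without c-kit+ replicate 2. It did not pass without c-kit- replicate 2 or 3 (adjusted p = 0.0636 and 0.0694). Platelet markers as a list, with Pf4 among them, were lower in 3 of 7, at 5.92 to 6.43 in c-kit+ and 6.94 to 8.13 in c-kit- arrays. The 3 were Pf4 itself, Ppbp (-3.09) and Thbs1 (-2.23), while 4 did not pass and the list median was -0.28. Il7r, the interleukin-7 receptor, had a difference of -1.21 (adjusted p = 0.0491, limma) that was lost without c-kit+ replicate 1, 2 or 3 and without c-kit- replicate 2 (adjusted p of 0.0666 to 0.145).

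**Figure D5:**
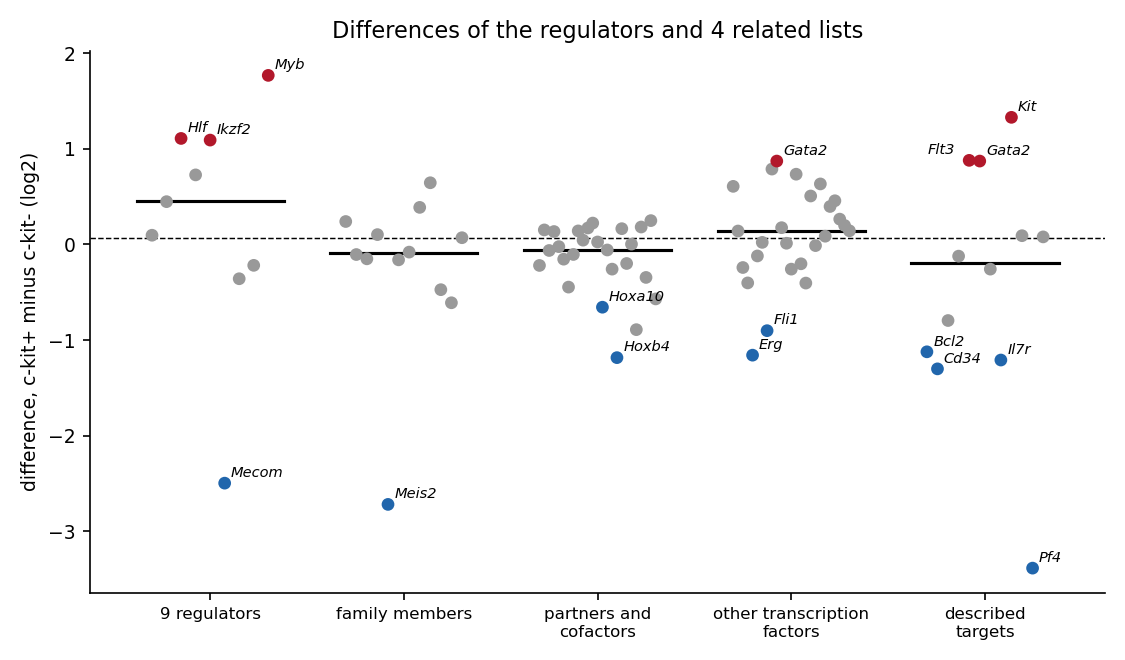
Difference (log2, c-kit+ minus c-kit-) of each gene of the 9 regulators and of 4 related lists, with red points higher and blue points lower at an adjusted p under 0.05, the median of each list as a line and that of all genes (0.07) dashed. Mecom (-2.50), Meis2 (-2.72) and Pf4 (-3.38) lay lowest and Myb (1.77) highest.

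The genes with the array pattern most like Myb, Hlf and Mecom were found by the root mean square distance over 6 arrays, with every gene centred on its own mean and gene models, microRNAs and small nucleolar RNAs left out. Nearest to Myb were Tex14, a gene of germ cell intercellular bridges (distance 0.121), the melanocortin receptor gene Mc5r (0.243), the adhesion receptor gene Adgrg1 (0.246), Atp1b2 (0.250) and Mns1 (0.259). Tex14 was at 7.16, 7.30 and 7.53 in c-kit+ replicates 1, 2 and 3, against 5.35, 6.31 and 5.65 in c-kit- replicates 1, 2 and 3. Like Myb it had its highest c-kit- value in replicate 2. The genes were picked for a small distance, so like differences and like array orders follow from the choice and are no further result.

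Nearest to Hlf were Rhox9, a reproductive homeobox gene (0.067), Meaf6 (0.084), Fignl1 (0.100), Taf4b, a gonadal subunit of the transcription factor TFIID (0.112), and Ankrd45 (0.117). Rhox9 differed by 1.07, against 1.11 for Hlf. In both genes the highest c-kit- value was that of replicate 3. Nearest to Mecom were Pdlim5 (0.270), the glycosyltransferase gene Eogt (0.296), the arterial ephrin gene Efnb2 (0.298), the imprinted zinc finger gene Plagl1 (0.299) and the endothelin receptor gene Ednrb (0.310). Their differences ran from -2.92 to -2.06, against -2.50 for Mecom. For Hlf and Mecom too, such likeness follows from how the genes were picked.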

How the data were processed

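Total RNA of 3 c-kit+ and 3 c-kit- samples was hybridised to 1 array each. Per the labels' protocols, 5 ng of RNA was amplified with a whole-transcript kit before labelling, which can distort ratios. Per the submitters' processing notes, the authors ran RMA, which gave the deposited log2 values, 1.22 to 13.7; that they are log2 follows from this range. For build, version and settings: not given in the sources used here.

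Of 34760 probe sets, 21640 had 1 gene symbol, 1321 several, and 11799 were unnamed here. Each gene took its probe set with the highest mean over 6 arrays, giving 19937 genes. All were fitted without a filter or block in limma (3.58.1, R 4.3.3, lmFit, then eBayes), two-sided. The p-values were adjusted over all genes (Benjamini-Hochberg, threshold 0.05). The procedure was also run on simulated arrays with independent normal errors, which checks the code and not the quality of these data. Pairs of probe sets were compared with exact permutation tests. The regulators and lists were chosen with earlier results of these data known. Named genes are the regulators, the list members that passed, and the 5 genes nearest to Myb, Hlf and Mecom; Kdm1a and Rcor1 were added after their values were seen. Same-numbered arrays of the 2 populations were not paired in the main fit. Their deviations from the population means correlated at 0.00, 0.02 and 0.06, which does not decide whether they came from the same embryos. Alternatives were other scaling, leaving out dim genes, other use of probe sets, other variance models, array weights, a replicate block and leaving out each array.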

Additional observations from a re-analysis of the deposited data

How the results depend on the processing

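The differences of Myb, Hlf and Mecom kept their direction and passed under 15 of 16 alternatives. The exception was the linear model without variance moderation, where the differences were 1.77, 1.11 and -2.50 (adjusted p = 0.0777, 0.084 and 0.101). That model called 0 regulators higher and 0 lower, with 66 genes higher and 216 lower over all genes. It called 0 targets lower and 1 higher, which was Kit, on which the cells were sorted (adjusted p = 0.0072). Among family members 1 was lower (Meis2, adjusted p = 0.0305) and 0 higher. No call fell on partners or other transcription factors, 0 in either direction. Ikzf2 stood at 1.09 in that model (adjusted p = 0.176) and at 1.09 with a replicate block (adjusted p = 0.0527). The block called 2 regulators higher, 1 lower and 1 partner lower; with it 476 genes were higher and 879 lower in all. By their labels the same-numbered replicates share only a number, and whether they came from the same embryos is not known.

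With 1 array left out, 276 to 369 genes were higher and 670 to 745 lower, against 540 and 937. Among the regulators 2 to 3 were higher and 1 lower in every such fit. The differences of Myb ran from 1.62 to 2.01, Hlf 1.0 to 1.27, Mecom -2.78 to -2.13, Ikzf2 0.91 to 1.32, and Gfi1 -0.01 to 0.21, negative only without c-kit+ replicate 2. Family members lower numbered 1 to 2, partners lower 1 to 2, other transcription factors higher 0 to 2, targets higher 2 to 3 and targets lower 2 to 4. Partners lower numbered 1 after median centring, after quantile normalization and with every probe set, where Hoxa10 did not pass, and 0 without the dimmest 50 percent of genes, which removed Hoxa10 and Hoxb4. That filter called 2 other transcription factors higher. Array number and amplification from 5 ng limit what small differences can show.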
